A study of Arabidopsis thaliana with 18 samples.

Results

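Transcripts of 8 cytosolic chaperone genes of Arabidopsis thaliana were followed in rosettes exposed to ozone. The genes were chosen by their identifiers and encode the disaggregase HSP101 (AT1G74310), the HSP90 proteins HSP90.1 (AT5G52640), HSP90.2 (AT5G56030), HSP90.3 (AT5G56010) and HSP90.4 (AT5G56000), and the HSP70 proteins HSC70-1 (AT5G02500), HSP70 (AT3G12580, called by its code from here on) and HSP70B (AT1G16030). They are 8 of the 32678 genes counted, and all 8 are among the 20622 that passed the filter on low counts. Messenger RNA was sequenced from whole rosettes of 3-week-old plants of the accessions Col-0 and Cvi-0 and of Col-S, a near-isogenic line of Col-0 that is sensitive to ozone as Cvi-0 is. Plants were kept as controls or given 350 ppb ozone for 2 h, with 3 libraries for each condition and genotype, which makes 6 groups and 18 libraries. A library pooled 10 to 15 rosettes, so it averages over plants, and Col-S stands for 1 introgression line.

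Heat shock proteins of these families bind other proteins that are unfolded, newly made or waiting to be activated. HSP70 takes up unfolded stretches with the help of J-domain partners, HSP90 receives client proteins such as receptors and kinases from HSP70 through adaptor proteins, and HSP101 pulls proteins out of aggregates. In Arabidopsis, HSC70-1 and HSP90.2 to HSP90.4 are known as constitutive members, HSP90.1 and HSP101 as heat-induced ones, and HSP101 is required for acquired tolerance to heat. Heat shock factors drive the inducible genes by binding repeated GAA units called heat shock elements, and HSP70 and HSP90 in turn hold such factors inactive.

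Total counts ranged from 14905841 to 26171613 per library, at which a floor of 3 counts corresponds to 0.109 to 0.207 CPM (counts divided by a library total scaled with TMM factors). A first principal component with 67.1% of the variance separated ozone from control libraries. On it, replicate 2 of Col-0 lay inward of the other Col-0 libraries under both conditions, at -92.1 against -121.3 and -115.7 in controls and at 54.5 against 79.9 and 89.8 after ozone. Replicate 2 of Col-S also lay inward, at -117.3 against -125.4 and -120.1 in controls. After ozone it was at 108.1 against 124.7 and 138.2. The 5 leaf markers were abundant everywhere, with summed levels of 44508 to 52965 CPM in control libraries. After ozone their sum was 30230 to 40898 CPM in Col-0, 16499 to 20270 CPM in Cvi-0 and 21693 to 26258 CPM in Col-S, and their part in the results on chaperones was not tested. In bulk samples fewer cells of a type and less RNA per cell cannot be told apart. The summed root, flower and seed markers did not exceed 2.95, 2.81 and 0.192 CPM, with 2 of 7 root and 2 of 4 seed markers at 0 in every library.

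Ozone raised nearly the whole set in each genotype. By edgeR, 7 of the 8 genes rose in Col-0, 8 in Cvi-0 and 8 in Col-S, each of these by at least 2-fold, and none fell. Among all tested genes, 29.8%, 34.5% and 34.3% rose, 17%, 23.1% and 22.2% did so by at least 2-fold, and 27.5%, 36.1% and 34% fell. The median log2 fold change of the 8 genes was 2.28 in Col-0, 2.85 in Cvi-0 and 2.83 in Col-S, against -0.02, -0.05 and -0.03 over all tested genes. All 3 ozone libraries lay above all 3 controls for 7 of the 8 genes in Col-0, 8 in Cvi-0 and 7 in Col-S, which was so for 32.2%, 36% and 35.3% of tested genes. The exception in both cases was HSP70B. Summed over the 8 genes, their share of all counts went from 0.211% ± 0.0293 to 0.818% ± 0.194 in Col-0, from 0.227% ± 0.0385 to 1.06% ± 0.0548 in Cvi-0 and from 0.218% ± 0.0301 to 1.22% ± 0.115 in Col-S (SD, n = 3). Calls over all genes depend on the scaling: with upper-quartile factors the median of all tested genes moved to -0.30, -0.37 and -0.37, and edgeR called 4618, 5673 and 5505 genes higher and 8797, 9896 and 9915 lower, against 6145, 7112 and 7076 higher and 5679, 7438 and 7005 lower with TMM factors. The chaperone genes that rose changed by at least 1.55 on the log2 scale, well over that shift.

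**Figure D1:**
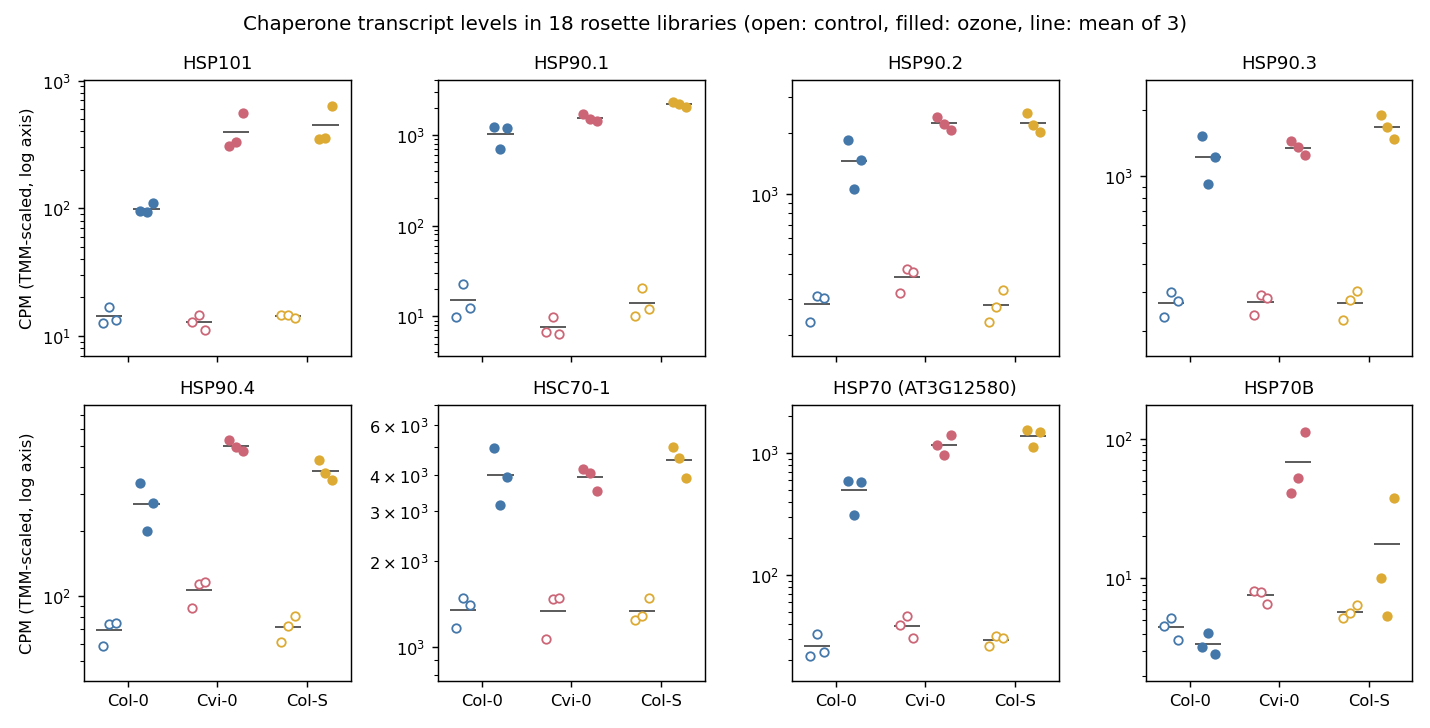
Level of each chaperone gene in every library, in TMM-scaled CPM on a log axis, with open points for controls, filled points for ozone and a line at the mean of 3 libraries. The ozone points lie above the controls of the same genotype except for HSP70B in Col-0 and in Col-S, where they overlap or lie lower.

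**Figure D2:**
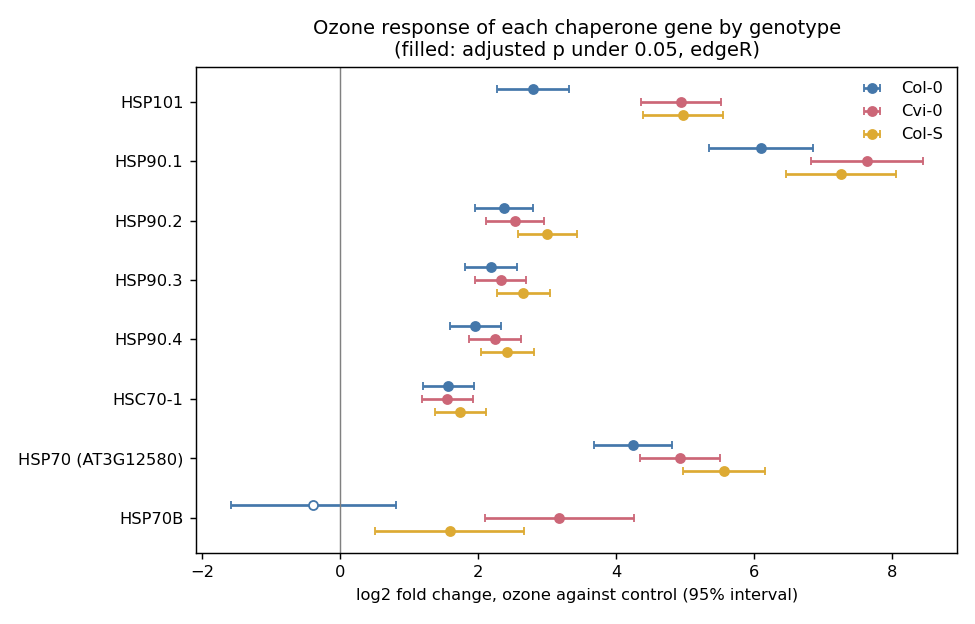
Log2 fold change of ozone against control for each gene and genotype from edgeR, with 95% intervals and filled points at an adjusted p under 0.05. HSP90.1 has the highest value in each genotype (6.10, 7.64 and 7.26), and the only open point is HSP70B in Col-0.

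HSP101, the disaggregase, rose in all 3 genotypes, and by more in Cvi-0 and in Col-S than in Col-0. In Col-0 the control libraries (replicates 1 to 3, in this order throughout) had 12.6, 16.9 and 13.2 CPM and the ozone libraries 94.5, 94.0 and 109 CPM. Cvi-0 had 12.9, 14.7 and 11.1 CPM in controls and 308, 327 and 557 CPM after ozone. Col-S had 14.6, 14.5 and 13.7 CPM in controls and 351, 356 and 638 CPM after ozone. The controls of the 3 genotypes thus overlapped, and every ozone library of Cvi-0 and of Col-S lay above every one of Col-0, with replicate 3 the highest in each genotype. The log2 fold change was 2.80 in Col-0 (SE 0.25, adjusted p = 4.71e-08), 4.94 in Cvi-0 (SE 0.27, adjusted p = 5.96e-11) and 4.97 in Col-S (SE 0.27, adjusted p = 6.09e-11).

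An interaction contrast, which sets one genotype's ozone response against another's, gave HSP101 a difference of 2.14 between Cvi-0 and Col-0 (SE 0.34, adjusted p = 0.000343). Between Col-S and Col-0 it was 2.17 (SE 0.34, adjusted p = 0.00263). Both values share the Col-0 libraries, and both were called with each of the 18 libraries left out in turn, at 1.83 to 2.30 and at 1.83 to 2.32. Between Col-S and Cvi-0 the responses differed by 0.03 (95% interval -0.68 to 0.73, adjusted p = 0.993). HSP101 lies on the minus strand of chromosome 1, from 27936508 to 27940190 in TAIR10, and its last 101 bases (27936508 to 27936608) overlap AT1G74300 on the other strand. AT1G74300 had group means between 5.46 and 8.61 CPM and was called in none of the 12 comparisons. Its largest log2 fold change with ozone, in Cvi-0, was 0.52 (adjusted p = 0.065). Whether counting used the strand is not given in the sources used here.

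HSP90.1, the heat-induced HSP90, had the steepest rise of the set. Col-0 controls had 9.83, 22.7 and 12.4 CPM and the ozone libraries 1223, 694 and 1178 CPM. Cvi-0 went from 6.68, 9.79 and 6.41 CPM to 1678, 1504 and 1408 CPM, and Col-S from 10.1, 20.4 and 12.0 CPM to 2321, 2171 and 2023 CPM. Replicate 2 was thus the highest control in each genotype, and in Col-0 it was also the lowest ozone library. The ozone libraries of the genotypes stood apart in the order Col-0, Cvi-0, Col-S, though edgeR called only the difference between Col-S and Col-0. The log2 fold changes were 6.10 (SE 0.36, adjusted p = 2.52e-10), 7.64 (SE 0.38, adjusted p = 2.04e-11) and 7.26 (SE 0.37, adjusted p = 3.07e-11). Only 0.824%, 1.15% and 1.31% of tested genes had a higher fold change in Col-0, Cvi-0 and Col-S.

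The response of HSP90.1 exceeded that of Col-0 by 1.54 in Cvi-0 (SE 0.42, adjusted p = 0.015), which became 1.10 (adjusted p = 0.0539) without replicate 2 of the Col-0 controls. In Col-S it exceeded Col-0 by 1.16 and was not called (95% interval 0.29 to 2.03, adjusted p = 0.142). In controls HSP90.1 was lower in Cvi-0 than in Col-0, by a log2 difference of -0.97 (SE 0.31, adjusted p = 0.03). That call was lost without Col-0 control replicate 2, at -0.53 (adjusted p = 0.234), and without Cvi-0 control replicate 1 or 3 (adjusted p = 0.0933 and 0.111). Replicate 2 was the highest control in each genotype, so leaving it out of Col-0 alone lowers only the Col-0 side. After ozone the level in Cvi-0 exceeded that in Col-0 by 0.57 and was not called (95% interval -0.03 to 1.17, adjusted p = 0.109). The level in Col-S exceeded that in Cvi-0 by 0.51, also not called (adjusted p = 0.204). It exceeded that in Col-0 by 1.07 (SE 0.29, adjusted p = 0.0167). This last call was lost without Col-0 ozone replicate 2 (0.84, adjusted p = 0.0927) or Col-S ozone replicate 1 (1.02, adjusted p = 0.0527).

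The constitutive HSP90.2, HSP90.3 and HSP90.4 form a cluster within 12200 bases of chromosome 5 (22677451 to 22689650, TAIR10) and are near copies. Their coding sequences in RefSeq (TAIR10.1) are 94.3% to 95.7% identical over aligned bases, and each is 78.9% to 79.4% identical to HSP90.1. The first 60 coding bases show how little separates the cluster and how far HSP90.1 stands from it, with capitals at bases unlike HSP90.2.
HSP90.2: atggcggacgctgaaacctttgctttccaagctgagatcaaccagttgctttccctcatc
HSP90.3: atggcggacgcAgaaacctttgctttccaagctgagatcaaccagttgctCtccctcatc
HSP90.4: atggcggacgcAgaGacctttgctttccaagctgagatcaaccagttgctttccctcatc
HSP90.1: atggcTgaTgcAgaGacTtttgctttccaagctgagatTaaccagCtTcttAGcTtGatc
In this stretch 2 bases of HSP90.3, 2 of HSP90.4 and 12 of HSP90.1 differ from HSP90.2. Of all stretches of 50 coding bases, 24.1% in HSP90.2, 29.8% in HSP90.3 and 21.9% in HSP90.4 occur unchanged in another of these 3 genes, so that reads of that length from them could not be assigned to 1 gene. HSP101, HSP90.1, AT3G12580, HSC70-1 and HSP70B shared no such stretch with another member or HSP70 relative examined.

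HSP90.2, which has a known role in immune receptor function, had 231, 311 and 304 CPM in Col-0 controls and 1846, 1054 and 1472 CPM after ozone. Cvi-0 went from 323, 422 and 410 to 2386, 2209 and 2075 CPM, and Col-S from 230, 273 and 334 to 2500, 2192 and 2020 CPM. The log2 fold changes were 2.37 (SE 0.20, adjusted p = 2.23e-08) in Col-0, 2.53 (SE 0.20, adjusted p = 5.76e-09) in Cvi-0 and 3.00 (SE 0.20, adjusted p = 9.08e-10) in Col-S. All ozone libraries of Cvi-0 and Col-S lay above those of Col-0, and no difference between responses was called. The difference between Cvi-0 and Col-0 was 0.16 (95% interval -0.40 to 0.73), and that between Col-S and Col-0 was 0.63 (0.07 to 1.20, adjusted p = 0.226).

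HSP90.3 went from 230, 301 and 274 to 1520, 928 and 1220 CPM in Col-0, from 236, 291 and 282 to 1443, 1357 and 1252 CPM in Cvi-0 and from 223, 276 and 301 to 1894, 1672 and 1478 CPM in Col-S. Its control levels overlapped in all 3 genotypes, and its log2 fold changes of 2.19, 2.32 and 2.66 (SE 0.18 each, adjusted p at most 1.35e-08) were followed by no called difference between genotypes. HSP90.4 went from 58.4, 74.0 and 75.1 to 336, 200.5 and 271 CPM in Col-0, from 87.8, 114 and 116 to 535, 493 and 476 CPM in Cvi-0 and from 61.0, 72.3 and 80.9 to 430, 373 and 347 CPM in Col-S. It was the least abundant of the cluster in every group, and its log2 fold changes were 1.96, 2.24 and 2.42 (SE 0.18 each, adjusted p at most 5.7e-08). Both groups of Cvi-0 lay above those of Col-0 and Col-S without overlap.

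In controls HSP90.4 was higher in Cvi-0 than in Col-0 by 0.62 (SE 0.17, adjusted p = 0.0142), and lower in Col-S than in Cvi-0, at -0.57 (SE 0.17, adjusted p = 0.0241). The former call was lost without any 1 of 3 libraries (Col-0 control replicate 1, Cvi-0 control replicates 2 and 3), and the latter without any 1 of 4 (Cvi-0 control replicates 2 and 3, Col-S control replicates 1 and 2), with adjusted p between 0.0563 and 0.117. The counts of the 3 near copies were also summed, so that counted reads could not move between these genes. Any shared reads left out at counting are missing from the sum too. The sum was called in neither control comparison (0.30, adjusted p = 0.27, and -0.30, adjusted p = 0.275). HSP90.4 was only 11.5% of the HSP90 transcripts per kilobase in Col-0 controls. The sum is mostly HSP90.2 and HSP90.3 and so cannot decide on a difference in HSP90.4. In Cvi-0 controls the per-kilobase shares of HSP90.2, HSP90.3 and HSP90.4 were 48.8%, 35.7% and 14.5%, against 43.2%, 43.0% and 11.5% in Col-0. In Col-S controls they were 42.9%, 42.9% and 11.9%. The build named for the counts, TAIR10, is a genome of Col-0. Whether that moved Cvi-0 reads among the copies was not tested. The summed copies rose with ozone by 2.25 in Col-0, 2.42 in Cvi-0 and 2.80 in Col-S (SE 0.19 each, adjusted p at most 2.2e-08). After ozone their sum was higher than in Col-0 by 0.47 in Cvi-0 (adjusted p = 0.0411) and by 0.54 in Col-S (adjusted p = 0.0497).

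HSC70-1, the main constitutive HSP70, was the most abundant member in all 6 groups, also per kilobase of transcript. Col-0 went from 1171, 1491 and 1402 to 4953, 3154 and 3936 CPM, Cvi-0 from 1072, 1472 and 1488 to 4198, 4081 and 3529 CPM and Col-S from 1249, 1289 and 1488 to 5009, 4576 and 3903 CPM. The genotypes overlapped both in controls and after ozone. Log2 fold changes were 1.57 (SE 0.18, adjusted p = 8.06e-07), 1.55 (SE 0.18, adjusted p = 4.73e-07) and 1.74 (SE 0.18, adjusted p = 1.45e-07), and no difference between genotypes was called in any comparison. The responses of Cvi-0 and Col-0 differed by -0.02 (95% interval -0.53 to 0.49), and those of Col-S and Col-0 by 0.18 (-0.33 to 0.69).

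AT3G12580, a stress-induced cytosolic HSP70, rose in all 3 genotypes. Its libraries went from 21.8, 32.8 and 23.5 to 596, 309 and 579 CPM in Col-0, from 39.3, 45.9 and 30.5 to 1161, 958 and 1410 CPM in Cvi-0 and from 26, 31.8 and 30.3 to 1548, 1122 and 1490 CPM in Col-S. Every ozone library of Cvi-0 and Col-S lay above those of Col-0. The log2 fold changes were 4.25 (SE 0.27, adjusted p = 5.81e-10), 4.93 (SE 0.27, adjusted p = 6.73e-11) and 5.56 (SE 0.28, adjusted p = 2.58e-11). The response of Col-S exceeded that of Col-0 by 1.31 (SE 0.33, adjusted p = 0.0395), and that of Cvi-0 exceeded it by 0.68 and was not called (95% interval -0.02 to 1.38, adjusted p = 0.157). The Col-S call was near the threshold and was lost without any 1 of 10 libraries (Col-0 control or ozone replicate 2, Cvi-0 control replicate 1, Cvi-0 ozone replicates 1 and 3, each Col-S control, Col-S ozone replicates 1 and 3), at 1.05 to 1.38 with adjusted p between 0.0511 and 0.123. It was also lost with upper-quartile scaling (adjusted p = 0.0509), with total counts alone (0.0551) and with only its 4 groups in the fit (0.0827).

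HSP70B, known in Arabidopsis as a heat-induced HSP70, was the least abundant member after ozone and the only one that did not rise in every genotype. Col-0 had 4.53, 5.24 and 3.61 CPM in controls and 3.24, 4.05 and 2.87 CPM after ozone. Cvi-0 went from 8.08, 8.0 and 6.57 to 40.6, 52.7 and 112 CPM. Col-S had 5.20, 5.69 and 6.40 CPM in controls and 10.1, 5.39 and 37.5 CPM after ozone, with replicate 2 within the range of the controls. All ozone libraries of Cvi-0 were thus above its controls, those of Col-0 overlapped with controls, and those of Col-S ranged widely. The log2 fold change was -0.39 in Col-0 (SE 0.57, adjusted p = 0.58), 3.18 in Cvi-0 (SE 0.51, adjusted p = 2.81e-05) and 1.59 in Col-S (SE 0.51, adjusted p = 0.0111).

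The difference in the response of HSP70B between Cvi-0 and Col-0 was 3.57 (SE 0.75, adjusted p = 0.00311), and leaving out each library in turn gave 3.03 to 3.84. The value of Col-S rested on 1 library: without Col-S ozone replicate 3 its response was 0.42 (adjusted p = 0.319). Its difference from Col-0 was 1.98 and not called (95% interval 0.37 to 3.58, adjusted p = 0.178), though it was without Col-S ozone replicate 2 (2.42, adjusted p = 0.03). Its difference from Cvi-0 was -1.59 and not called (-3.08 to -0.10, adjusted p = 0.261), and -2.76 (adjusted p = 0.00245) without Col-S ozone replicate 3. The same library, Col-S ozone replicate 3, had the highest HSP101 level of all 18. In Cvi-0 too, ozone replicate 3 was the highest of its group for HSP70B (112 CPM) and for HSP101 (557 CPM). In Col-0, ozone replicate 3 was the highest for HSP101 (109 CPM) and the lowest for HSP70B (2.87 CPM).

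Counting over the set, edgeR called 3 of 8 responses different between Cvi-0 and Col-0 (HSP101, HSP90.1 and HSP70B, all larger in Cvi-0), where 21.4% of all tested genes were called and 11.1% in that direction. Between Col-S and Col-0 it called 2 of 8 (HSP101 and AT3G12580, both larger in Col-S), where 3.26% of all tested genes were called and 2.94% in that direction. That count was 1 of 8 without any 1 of the 10 libraries named for AT3G12580 and 3 of 8 without Col-S ozone replicate 2. The share of tested genes called moved as well, to 1.46% to 2.01% without any 1 of 6 libraries (Col-0 control or ozone replicate 2, each Col-S control, Col-S ozone replicate 3) and to 6.26% without Col-S ozone replicate 2. Between Col-S and Cvi-0 it called 0 of 8, with 4.86% of tested genes called. At an unadjusted p under 0.05 that last count was 1 of 8 (HSP70B), and DESeq2 called 0. In controls, 2 of 8 genes differed between Cvi-0 and Col-0 (HSP90.4 higher, HSP90.1 lower) against 24% of tested genes, 0 of 8 between Col-S and Col-0 against 0.844%, and 1 of 8 between Col-S and Cvi-0 (HSP90.4 lower) against 21.1%. The count of 0 was also 0 at an unadjusted p under 0.05 and with DESeq2, and the 0.844% beside it became 0.468% to 0.541% without Col-0 control replicate 2 or any 1 of the Col-S controls.

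After ozone, the levels themselves were compared between genotypes. Cvi-0 exceeded Col-0 for 5 of 8 genes, against 24.6% of tested genes higher. These were HSP70B with a log2 difference of 4.32 (SE 0.55, adjusted p = 7.04e-06), HSP101 with 2.00 (SE 0.24, adjusted p = 3.09e-06), AT3G12580 with 1.25 (SE 0.23, adjusted p = 0.000317), HSP90.4 with 0.90 (SE 0.17, adjusted p = 0.00038) and HSP90.2 with 0.61 (SE 0.19, adjusted p = 0.0135). The value of HSP90.2 was 0.40 (adjusted p = 0.087) without Col-0 ozone replicate 2. Col-S exceeded Col-0 for 5 of 8 genes, against 10.2% of tested genes higher, a share that was 6.36% without Col-0 ozone replicate 2 and 6.2% without Col-S ozone replicate 3. HSP70B had 2.34 (SE 0.54, adjusted p = 0.00667), which was 1.18 (adjusted p = 0.0592) without Col-S ozone replicate 3. HSP101 had 2.17 (SE 0.24, adjusted p = 1.8e-05), AT3G12580 1.49 (SE 0.24, adjusted p = 0.000411) and HSP90.1 1.07, as above. HSP90.2 had 0.62 (SE 0.19, adjusted p = 0.0344), and that call was lost without any 1 of 4 libraries (Col-0 ozone replicates 2 and 3, Col-S ozone replicates 1 and 3), with adjusted p between 0.054 and 0.176. Between the ozone groups of Col-S and Cvi-0 only HSP70B was called, at -1.98 (SE 0.48, adjusted p = 0.00498), or -3.14 (adjusted p = 8.49e-06) without Col-S ozone replicate 3, against 28.6% of tested genes. With only the 2 groups compared in the fit, the calls for Col-S against Col-0 of HSP70B (adjusted p = 0.082) and HSP90.2 (0.145) and that of HSP70B for Col-S against Cvi-0 (0.0578) were lost.

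**Figure D3:**
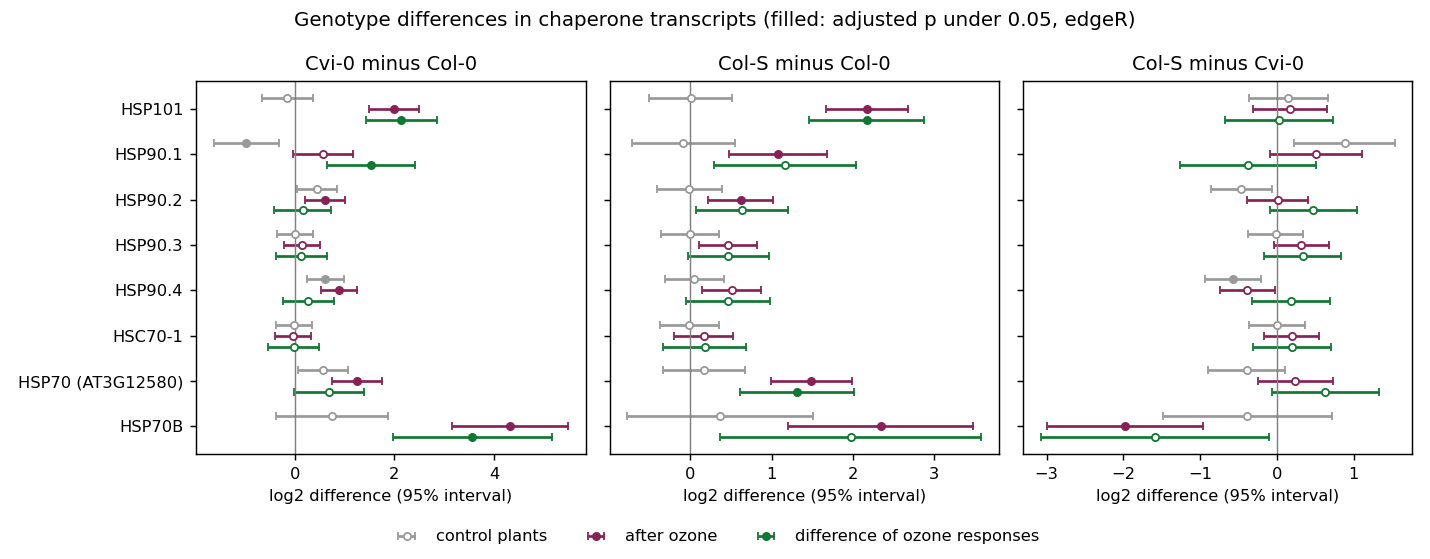
Log2 differences between genotypes for each gene, in control plants, after ozone and between the ozone responses, with 95% intervals and filled points at an adjusted p under 0.05 by edgeR. In the panels against Col-0, HSP101 has filled points after ozone and for the response, and HSC70-1 has none in any panel.

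The make-up of the HSP90 members, and that of the HSP70 members studied, was not the same before and after ozone. Levels per kilobase of transcript allow genes to be compared with each other. In Col-0 controls HSC70-1 had 571 ± 69.7 CPM per kilobase, HSP90.2 had 112 ± 17.6 and HSP90.3 had 111 ± 14.7, and these last did not differ beyond their spread. HSP90.4 followed with 29.6 ± 4.0, AT3G12580 with 11.4 ± 2.58, HSP90.1 with 6.04 ± 2.74, HSP101 with 4.47 ± 0.730 and HSP70B with 1.91 ± 0.350 (SD, n = 3), and HSP90.1 and HSP101 overlapped. After ozone HSP90.1 moved up to the fourth place in Col-0, at 417 ± 119 CPM per kilobase, overlapping HSP90.3 at 505 ± 122. In Cvi-0 it stood at 618 ± 55.1 after ozone, above HSP90.3 at 558 ± 39.4 with overlap, from the last place in controls at 3.08 ± 0.757.

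As a share of the 4 HSP90 transcripts per kilobase, HSP90.1 went from 2.29% ± 0.768 to 25.7% ± 2.32 in Col-0, from 0.987% ± 0.192 to 27.2% ± 0.427 in Cvi-0 and from 2.23% ± 0.808 to 33.5% ± 1.02 in Col-S (SD, n = 3). The shares of HSP90.2, HSP90.3 and HSP90.4 were all lower after ozone. HSP90.3 went from 43.0% ± 1.19 to 31.4% ± 1.41 in Col-0, from 35.7% ± 0.851 to 24.6% ± 0.268 in Cvi-0 and from 42.9% ± 0.818 to 26.4% ± 0.685 in Col-S. In the same order, HSP90.2 went from 43.2% to 35.7%, from 48.8% to 38.8% and from 42.9% to 33.8%. HSP90.4 went from 11.5% to 7.16%, from 14.5% to 9.45% and from 11.9% to 6.26%. Among the 3 HSP70 members, AT3G12580 went from 1.94% ± 0.263 to 11.2% ± 2.01 in Col-0, from 2.95% ± 0.798 to 23.4% ± 4.77 in Cvi-0 and from 2.22% ± 0.235 to 24.3% ± 3.96 in Col-S. The after-ozone share of AT3G12580 in each library of Cvi-0 and Col-S lay above those of Col-0. HSC70-1 made up the rest of these 3 almost entirely, with 88.7% ± 1.98, 75.2% ± 5.48 and 75.4% ± 4.26 after ozone in Col-0, Cvi-0 and Col-S. The relatives HSC70-2 and HSC70-3, described below, also had high levels after ozone and are not in these shares. The HSP70 shares thus do not describe all cytosolic HSP70 transcripts. These shares are descriptions and were not tested.

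**Figure D4:**
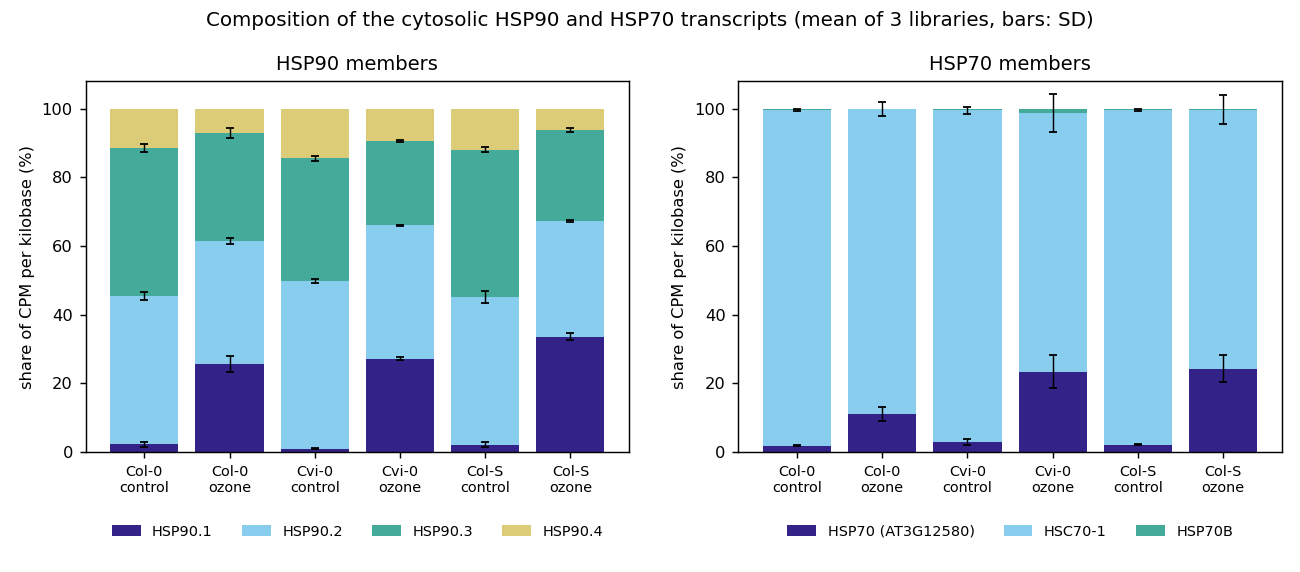
Share of each gene in the CPM per kilobase of the 4 HSP90 members and of the 3 HSP70 members, stacked to 100%. Segments are means of 3 libraries per group, with the SD drawn at the upper edge except for HSP90.4 and HSP70B. The HSP90.1 segment is 25.7%, 27.2% and 33.5% after ozone in Col-0, Cvi-0 and Col-S, and the AT3G12580 segment 11.2%, 23.4% and 24.3%.

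Sequence upstream of the genes was read for heat shock elements, because the members differ in known heat inducibility. The search covered 250 bases before each gene start given in the files, on the TAIR10.1 sequence, for 2 units (GAANNTTC or TTCNNGAA, each its own reverse complement) and for 3 units, where GAA and TTC alternate with 2 bases of any kind between them on either strand, so that a match to 3 units also holds both kinds of 2 units. A match to 3 units was found for HSP90.1, AT3G12580 and HSC70-1, and in 0.414% of 32398 promoters (134). HSP101 had a match to 2 units, which 16.4% of promoters hold in either form. The 4 sites are shown 5′ to 3′ on the strand of the gene with the match in capitals.
HSP101, chr1:27940322-27940351, minus strand: ataaaataagcGAAAATTCcacgtgacatc
HSP90.1, chr5:21352254-21352283, plus strand: aacgaaaaGAACTTTCTGGAAttcgtttgc
AT3G12580, chr3:3993845-3993874, minus strand: ttactcgtGAACGTTCTCGAAagctctttg
HSC70-1, chr5:556553-556582, minus strand: caaccatcGAACATTCTCGAAacattttaa
The windows of HSP90.2, HSP90.3, HSP90.4 and HSP70B held no match to either. The 3 genes with 3 units spanned, in Col-0 and in Cvi-0, the lowest (HSC70-1) to the highest (HSP90.1) log2 fold change of the members that rose. With the gene starts of RefSeq instead, whose windows lie elsewhere for most of these genes, 0 of the 8 held 3 units, against 0.408% of promoters. By those starts the sites of HSP101, AT3G12580 and HSC70-1 lie inside the gene, and that of HSP90.1 lies farther upstream than its window.

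Of 4 relatives of the HSP70 members, listed as near copies, 3 rose in Col-0, 4 in Cvi-0 and 3 in Col-S, against 29.8%, 34.5% and 34.3% of all tested genes, with median log2 fold changes of 3.07, 3.54 and 3.60. HSC70-2 (AT5G02490), which lies next to HSC70-1 and is 87.2% identical to it in coding bases, went from 33.6 ± 18.4 to 1644 ± 505.6 CPM in Col-0, from 25.6 ± 1.39 to 3931 ± 434 CPM in Cvi-0 and from 26.6 ± 6.83 to 3668 ± 309 CPM in Col-S (SD, n = 3). Its log2 fold changes were 5.61, 7.26 and 7.11 (adjusted p at most 5.85e-10), and its response was larger in Cvi-0 than in Col-0 by 1.65 (SE 0.42, adjusted p = 0.00932). Its ozone libraries all lay above its controls in each genotype. HSC70-3 (AT3G09440) went from 290 ± 47.8 to 3453 ± 944 CPM in Col-0, and its log2 fold changes were 3.57, 3.84 and 4.05 in the 3 genotypes. ERD2 (AT1G56410), 72.8% to 83.8% identical to the HSP70 members in coding bases, rose by 2.58, 3.25 and 3.15. HSP70T-2 (AT2G32120), a truncated HSP70 whose identity to the members was not computed, rose in Cvi-0 by 2.16 (SE 0.32, adjusted p = 9.63e-06) and had 0.04 in Col-0 and 0.42 in Col-S, which were not called. Its response was larger in Cvi-0 than in Col-0 (2.12, adjusted p = 0.00467) and smaller in Col-S than in Cvi-0 (-1.73, adjusted p = 0.0363).

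With HSC70-1, HSC70-2 and HSC70-3 summed, the log2 fold changes were 2.44, 2.89 and 2.97 (SE 0.19 each), larger than those of HSC70-1 alone. After ozone the sum was higher in Cvi-0 than in Col-0 by 0.46 (SE 0.18, adjusted p = 0.0383), where HSC70-1 alone had -0.03 (adjusted p = 0.905). HSC70-1 and HSC70-2 shared no stretch of 50 coding bases with any other gene, and HSC70-3 only with ERD2. The sum thus describes the genes together and is no check on HSC70-1. The windows upstream of HSC70-2 and HSC70-3 also held matches to 3 units, shown here as for the members. Whether such matches bear on the rise with ozone was not tested.
HSC70-2, chr5:552685-552714, minus strand: taattacaGAACATTCTGGAAactcaagtc
HSC70-3, chr3:2905893-2905922, minus strand: atcgaaccGAACATTCTCGAAcctttttaa
HSC70-3, chr3:2905764-2905793, minus strand: gagccatcGAACCTTCTCGAAactcgagta
HSC70-3 held 2 such matches within 250 bases. The windows of ERD2 and HSP70T-2 held no match to 2 or 3 units. With RefSeq gene starts none of the 4 relatives held a match, and the sites of HSC70-2 and HSC70-3 lay inside the genes.

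Of 12 chaperones of the same families in organelles, 5 rose and 2 fell in Col-0, 6 rose and 4 fell in Cvi-0 and 7 rose and 3 fell in Col-S. Among all tested genes 29.8%, 34.5% and 34.3% rose and 27.5%, 36.1% and 34% fell, and nothing particular to the list is read from these counts. The list had median log2 fold changes of 0.39, 0.45 and 0.55. CLPB3 (AT5G15450), the chloroplast relative of HSP101, fell in each genotype, from 207 ± 12.7 to 113 ± 24.8 CPM in Col-0, from 195 ± 6.94 to 49.5 ± 4.12 CPM in Cvi-0 and from 229 ± 10.1 to 77.3 ± 8.11 CPM in Col-S, at log2 fold changes of -0.88, -1.98 and -1.57. Its fall was larger in Cvi-0 (difference -1.10, adjusted p = 0.000561) and in Col-S (-0.69, adjusted p = 0.0478) than in Col-0, so that HSP101 and its chloroplast relative moved in opposite directions. Mitochondrial mtHSC70-2 (AT5G09590) rose by 1.42, 1.38 and 1.84, and the endoplasmic reticulum HSP70 genes BIP1 (AT5G28540) and BIP2 (AT5G42020) by 1.29 to 2.05.

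Among 12 partners of HSP90, 8 rose and 1 fell in Col-0, 8 rose and 3 fell in Cvi-0 and 8 rose and 2 fell in Col-S, beside 29.8%, 34.5% and 34.3% of all tested genes that rose and 27.5%, 36.1% and 34% that fell. The median log2 fold changes were 1.24, 1.48 and 1.45. HOP3 (AT4G12400), an adaptor that links HSP70 to HSP90, went from 5.46 ± 0.875 to 111 ± 30.5 CPM in Col-0, from 4.88 ± 0.423 to 280 ± 40.7 CPM in Cvi-0 and from 4.29 ± 0.557 to 292 ± 2.01 CPM in Col-S. Its response exceeded that of Col-0 by 1.5 in Cvi-0 (adjusted p = 0.000792) and by 1.76 in Col-S (adjusted p = 0.00228). The ubiquitin ligase CHIP (AT3G07370) rose by 2.25, 2.69 and 2.86 and the immunophilin ROF2 (AT5G48570) by 3.14, 4.24 and 4.38. SGT1A (AT4G23570), a partner of HSP90 in immunity, rose by 2.67 in Col-0, 1.69 in Cvi-0 and 3.29 in Col-S, and its response was smaller in Cvi-0 than in Col-0 (-0.98, adjusted p = 0.00122), the opposite of HOP3.

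Of 8 partners of HSP70, 5 rose in each genotype, 1 fell in Col-0 and Cvi-0 and 2 fell in Col-S, where 29.8%, 34.5% and 34.3% of all tested genes rose and 27.5%, 36.1% and 34% fell. The medians were 1.79, 2.77 and 2.9 on the log2 scale. FES1A (AT3G09350), a nucleotide exchange factor of cytosolic HSP70, went from 11.4 ± 1.05 to 262 ± 61.5 CPM in Col-0, from 12.4 ± 0.744 to 400 ± 59.7 CPM in Cvi-0 and from 12.1 ± 1.51 to 700.1 ± 87.5 CPM in Col-S. Its response was larger in Col-S than in Col-0 (1.33, adjusted p = 0.00572) and than in Cvi-0 (0.84, adjusted p = 0.0497). The J-domain gene AT2G20560 rose by 2.88, 4.20 and 4.11, with larger responses in Cvi-0 and Col-S than in Col-0 (1.32, adjusted p = 0.000252, and 1.23, adjusted p = 0.00347). ATJ2 (AT5G22060) rose by 2.99, 3.65 and 3.68 and ATJ3 (AT3G44110) by 1.89, 1.88 and 2.12, with no called difference between responses.

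Regulators of the heat stress response numbered 15, of which 13 were tested. Of these, 7 rose and 2 fell in Col-0, 9 rose and 1 fell in Cvi-0 and 8 rose and 1 fell in Col-S, with medians of 1.16, 1.82 and 1.29. The shares of all tested genes were 29.8%, 34.5% and 34.3% higher and 27.5%, 36.1% and 34% lower. The heat shock factor HSFA2 (AT2G26150) went from 1.93 ± 0.367 to 99.7 ± 10.5 CPM in Col-0, from 2.44 ± 0.593 to 308 ± 39.5 CPM in Cvi-0 and from 2.48 ± 0.343 to 294 ± 42.4 CPM in Col-S. Like HSP101, it responded more in Cvi-0 and in Col-S than in Col-0, by 1.28 (adjusted p = 0.00229) and 1.21 (adjusted p = 0.0162). The coactivator MBF1C (AT3G24500) had log2 fold changes of 2.16, 4.09 and 3.66, with differences from Col-0 of 1.94 (adjusted p = 6.4e-05) and 1.5 (adjusted p = 0.00386). The class B factors HSFB2A (AT5G62020) and HSFB2B (AT4G11660) rose by 2.34, 2.67 and 2.65 and by 1.56, 2.75 and 2.22. HSFA1E (AT3G02990), picked out after its values were seen, fell by 0.78 in Col-0, rose by 1.82 in Cvi-0 and had 0.02 in Col-S (adjusted p = 0.959), and its response in Cvi-0 exceeded that in Col-0 by 2.60 (adjusted p = 7.22e-05).

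**Figure D5:**
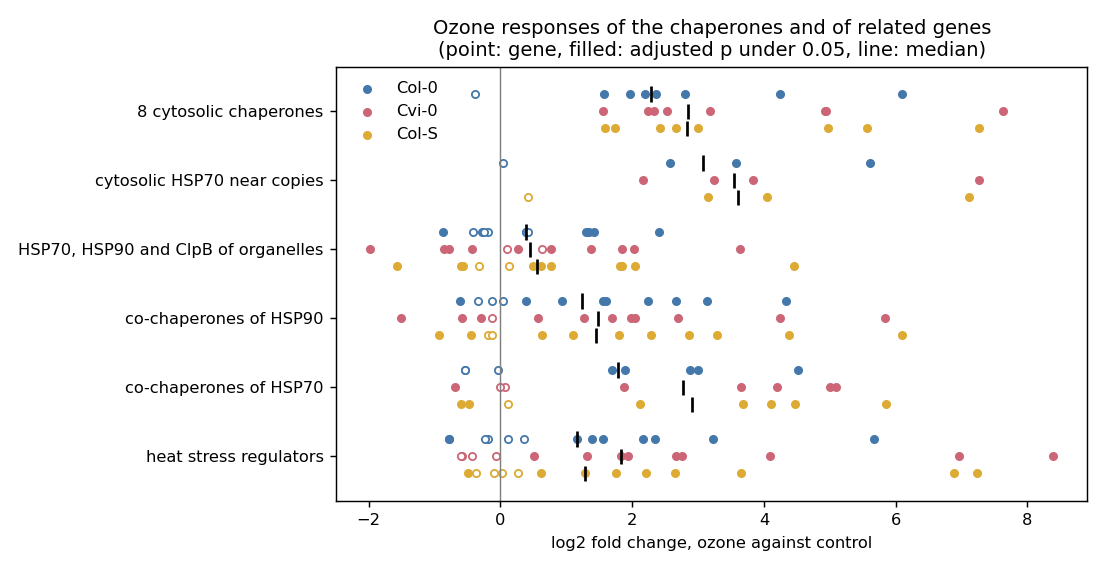
Log2 fold change with ozone of each tested gene of the 8 cytosolic chaperones and of 5 related lists, by genotype, with filled points at an adjusted p under 0.05 by edgeR and a line at the median. The medians of the cytosolic chaperones are 2.28, 2.85 and 2.83, and those of the organelle relatives 0.39, 0.45 and 0.55.

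Across the 18 libraries, log2 CPM of 7 of the members moved closely together, with Pearson's r between 0.925 and 0.994 for every pair without HSP70B. HSP70B had r between 0.375 and 0.631 with the others, highest with HSP101. These are descriptions over libraries that fall into ozone and control groups. The tested genes most like a member in pattern were sought with the members themselves left out, and not for HSP90.3 and HSP90.4. Those for HSP101 were AT1G04200 (0.993), AT5G35320 (0.993) and the cation exchanger CAX4 (0.993). For HSP90.1 they were AT2G32190 (0.997), AT5G11970 (0.996) and the calcium-dependent kinase CPK1 (0.996). For HSP90.2 they were AT3G51790 (0.994), AT1G79930 (0.993), an HSP70-related gene, and AT4G28480 (0.993). For AT3G12580 they were AGO2 (0.996), which encodes an Argonaute, RAB1A (0.995) and AT5G51440 (0.995). For HSC70-1 they were the fumarase gene FUM1 (0.994), AT1G79920 (0.993), also HSP70-related, and ORP3B (0.992). HSP70B was most like HSP70T-2 (0.975), followed by AT5G46170 (0.961) and AT5G13880 (0.961).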

How the data were processed

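Messenger RNA of rosettes was sequenced in 18 libraries of 6 groups, with the TruSeq RNA kit per the labels' protocols. The authors deposited raw counts per gene for each library, with no normalization. FastQC, TopHat2, SAMtools and HTSeq are named in the submitters' processing notes beside the build TAIR10, a genome of Col-0. No source used here gives their versions, the use of strand in counting or how reads with several matches were treated. Whether sequence differences between Cvi-0 and that genome changed any Cvi-0 count was not tested.

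The deposited counts were analysed with edgeR 4.0.16 in R 4.3.3 (with limma 3.58.1, jsonlite 2.0.0 and version 1.17.8 of data.table loaded). filterByExpr kept 20622 of 32678 genes. A quasi-likelihood model with TMM scaling was fitted to the 6 groups together, with 12 residual degrees of freedom, and gave 12 comparisons, namely the ozone response of each genotype, the differences of these responses, and the genotype pairs in controls and after ozone. A call needs an adjusted p below 0.05 (Benjamini-Hochberg, all tested genes), and every adjusted p given is of this kind. SE values follow from the fold change and its F statistic. Per the labels, the 3 pools of a group are biological replicates. Floors of 3 counts cover counting error only. Per-kilobase values divide CPM by the gene span given with the counts, less the bases inside the RefSeq gene that no RefSeq exon covers. The code was tested on simulated data.

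Alternatives were 3 other scalings, no filter, DESeq2 1.42.0, only the groups compared, a replicate block, summed near copies, and each library left out in turn. Sequences and gene models are from RefSeq (TAIR10.1), read with Python 3.11.15 and Biopython 1.88. All 27998 genes present in both annotations lay on the same strand and inside the chromosome, and 50.19% shared a start or an end. Identity was computed on coding bases, and protein sequences were not used here. Figures were drawn with matplotlib 3.10.9.

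The members, the lists and the tests were chosen with earlier results of these data known. The genes named beyond the members include the HSP70 relatives listed as near copies and the gene that overlaps HSP101. Up to 4 per list with the smallest p for the average ozone response are also named. So are the 3 genes outside the members with the highest correlation to a member, sought for all but HSP90.3 and HSP90.4. HSFA1E is outside this rule and was picked after its values were seen.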

Additional observations from a re-analysis of the deposited data

Results flagged for a closer look

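Under the interaction test, 5 results differed between genotypes. The ozone response of HSP70B was larger in Cvi-0 than in Col-0 by 3.57 on the log2 scale (edgeR adjusted p = 0.00311), with 3 of 3 Cvi-0 ozone libraries above all Cvi-0 controls and the Col-0 libraries overlapping. HSP101 responded more in Cvi-0 than in Col-0 by 2.14 (adjusted p = 0.000343) and more in Col-S than in Col-0 by 2.17 (adjusted p = 0.00263). The response of HSP90.1 was larger in Cvi-0 than in Col-0 by 1.54 (adjusted p = 0.015), and that of AT3G12580 was larger in Col-S than in Col-0 by 1.31 (adjusted p = 0.0395). The HSP90.1 call was lost without Col-0 control replicate 2 (adjusted p = 0.0539), and the AT3G12580 call without any 1 of 10 libraries (adjusted p 0.0511 to 0.123), with upper-quartile scaling (0.0509), with total counts (0.0551) and with only the groups compared (0.0827). For HSP101, HSP90.1 and AT3G12580 all ozone libraries lay above all controls in each genotype, and the differences are of size. All 5 rest on the same Col-0 libraries. Dixon's test for a library far from its group was not applied, because the groups hold 3 libraries.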

How the results depend on the processing

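The 24 ozone responses of the 8 genes kept their direction and side of the threshold in 611 of 612 recomputations. The exception was HSP70B in Col-S without Col-S ozone replicate 3. Leaving out each library in turn, the number of genes called was 7 to 8 for the Col-S response, 2 to 3, 1 to 3 and 0 to 1 for the differences of responses (Cvi-0 minus Col-0, Col-S minus Col-0, Col-S minus Cvi-0), 0 to 3, 0 and 0 to 2 in controls and 4 to 5, 3 to 7 and 1 after ozone, in the same order of pairs. For Col-S against Col-0, 1 difference of responses was called with upper-quartile scaling, total counts or only the groups compared, and 3 genes after ozone with only the groups compared. The latter count rose to 6 with DESeq2-type factors (HSP90.4, adjusted p = 0.0438), 6 with the replicate block and 7 with DESeq2 (HSP90.4, 0.0219, and HSP90.3, 0.0362). Over all genes, the 673 differences of responses called for Col-S against Col-0 became 1482 with the replicate block, 1281 with DESeq2, 279 with only the groups compared and 304 to 1308 with 1 library left out. The 1003 for Col-S against Cvi-0 became 1522 with the block. The 174 called in Col-S against Col-0 controls became 105 with only the groups compared and 285 with DESeq2, and the 2094 higher in Col-S than in Col-0 after ozone became 933 with only the groups compared. For Col-S against Cvi-0 controls, 2 were called with upper-quartile scaling, total counts, no filter, the replicate block, only the groups compared or DESeq2, where HSP90.1 joined HSP90.4. The cause of these changes was not tested.

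Same-numbered libraries of different groups correlated at 0.0399 to 0.448 in their deviations from the group means, and 35 of 45 pairs exceeded 0.1, against 1 of 90 pairs of libraries with different numbers. All 18 libraries correlated best with their own number, a hint from the data that the numbers mark something shared. The labels do not say that they do and 10 of the 45 pairs did not exceed 0.1, so the fit without the block was kept. With the replicate block, HSP90.1 in Col-S against Cvi-0 controls (0.87, adjusted p = 0.0427) and HSP90.4 in Col-S against Col-0 after ozone (0.51, adjusted p = 0.0416) were also called, and no call was lost.

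Of 20 log2 differences between genotypes that turned sign somewhere, 0 were called in the fit reported, and none exceeded 0.39 in size. With DESeq2-type factors, HSC70-1 had 0.035 (difference of responses) and 0.0030 (after ozone) for Cvi-0 minus Col-0 and 0.0121 for Col-S minus Cvi-0 controls, HSP90.3 had -0.0129 for Cvi-0 minus Col-0 controls and HSP101 -0.0043 for Col-S minus Col-0 controls. DESeq2 gave 0.035, 0.0030, 0.0120, -0.0129 and -0.0028 for the same 5. In Col-S minus Col-0 controls, HSC70-1, HSP90.3 and HSP90.2 had 0.0035, 0.0077 and 0.0010 with upper-quartile scaling and 0.038, 0.0432 and 0.0368 with total counts. In Col-S minus Cvi-0 controls, HSC70-1 had 0.014 with upper-quartile scaling, 0.0404 with total counts, 0.0034 with no filter and 0.0434 with only the groups compared, and HSP90.3 had 0.028 with total counts and 0.0289 with only the groups compared. HSP90.3 in Cvi-0 minus Col-0 controls had -0.0012 with no filter and -0.0204 with only the groups compared. HSP101 had -0.0335 for the difference of responses of Col-S and Cvi-0 with total counts and -0.0017 for Col-S minus Col-0 controls with no filter. With near copies summed, the feature that holds HSP90.4 had -0.0062 in Col-S minus Col-0 controls and 0.078 in Col-S minus Cvi-0 after ozone. That holding HSC70-1 had 0.447, 0.0175 and 0.464 for Cvi-0 minus Col-0 (difference of responses, controls, after ozone), the last called.

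Values that turned sign with 1 library left out ranged as follows. In the difference of responses, Cvi-0 minus Col-0, HSC70-1 ran from -0.159 to 0.161, HSP90.3 from -0.0229 to 0.323, HSP90.2 from -0.02 to 0.367. In Cvi-0 minus Col-0 controls, HSP90.3 ran from -0.0942 to 0.0967, HSP101 from -0.252 to 0.0004, HSC70-1 from -0.109 to 0.127. In Col-S minus Col-0 controls, HSP101 ran from -0.0788 to 0.147, HSP90.4 from -0.0627 to 0.147, HSC70-1 from -0.109 to 0.0615, HSP90.1 from -0.446 to 0.349, HSP90.3 from -0.109 to 0.104, HSP90.2 from -0.166 to 0.105. In Col-S minus Cvi-0 controls, HSC70-1 ran from -0.14 to 0.0788, HSP90.3 from -0.113 to 0.0988. In Cvi-0 minus Col-0 after ozone, HSC70-1 ran from -0.197 to 0.149, HSP90.3 from -0.0423 to 0.329. In the difference of responses, Col-S minus Cvi-0, HSP101 ran from -0.314 to 0.337. In Col-S minus Cvi-0 after ozone, HSP90.2 ran from -0.0765 to 0.0796, HSP101 from -0.167 to 0.513. Values without one library rest on 2 libraries in its group and the spread of the other groups.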
